A study of Mus musculus with 2 samples.

Results

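The cells described here are medullary thymic epithelial cells (mTECs) that carried transcripts of neuroendocrine genes. They were picked by a marker rule from 2 single-cell libraries of sorted mouse thymic epithelium. A cell had to have at least 500 detected genes, at least 1000 UMIs (counted transcript molecules) and at most 15% mitochondrial UMIs. It then needed UMIs of at least 3 of the 6 genes Chga, Chgb, Insm1, Scg3, Snap25 and Neurod1, with a sum of at least 5 per 10000 of its UMIs. Cells with any Ptprc UMI (the pan-leukocyte gene CD45) were left out, as were cells with Trpm5, Dclk1 and Alox5ap (tuft genes) at a sum of 10 per 10000 or more. The rule kept 287 of 13307 cells that passed the quality filter, and these are called neuroendocrine-marker cells below.

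As background, neuroendocrine cells of the gut, airway and pancreatic islet are epithelial cells that make peptide hormones, process them with prohormone convertases and store them in dense-core granules built with chromogranins and secretogranins. The granules are released through the same calcium-triggered fusion machinery that neurons use. In the thymic medulla a small share of mTECs takes on gene programmes of peripheral tissues, among them the neuroendocrine programme, and such cells are known as mimetic cells. They are thought to show peripheral antigens to developing T cells, next to the mTECs in which the regulator AIRE drives scattered expression of tissue-restricted genes.

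The libraries came from the thymus of mice that carry Foxn1-Cre, a Cre recombinase driven by the promoter of the thymic epithelial factor Foxn1. Both groups therefore carried Cre and at least 1 floxed allele of Ikaros (gene Ikzf1), a zinc finger transcription factor best known from lymphocytes. The genotype is labelled Foxn1-Cre(+) Ikaros+/fl for one library and Foxn1-Cre(+) Ikarosfl/fl for the other, with 1 library each. Cells were sorted as EPCAM+Ly51- and profiled with the 10x Genomics 3′ kit. Age, number of mice and the exons lost from the floxed allele are not stated in the labels. The names that the submitters gave the count matrices call the +/fl-labelled library the knockout and the fl/fl-labelled library the control, so directions below are stated by label alone. With 1 library per genotype no replicate error exists, no test was made, and every interval is a 95% interval that covers counting error only.

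Several facts of the libraries bear on the results. The female transcript Xist was at 1102 CPM (summed UMIs per 1000000) in neuroendocrine-marker cells labelled +/fl and at 0.294 CPM in those labelled fl/fl, while Ddx3y, Uty, Kdm5d and Eif2s3y, genes of the Y chromosome, had no UMI in the former and 87.6, 28.8, 16.8 and 51.5 CPM in the latter. Sex and genotype cannot be told apart in these data. Ikzf1 (chromosome 11, 11685003 to 11772926), the floxed gene, was at 69.4 CPM in neuroendocrine-marker cells labelled +/fl, with UMIs in 20 of 42 cells, and at 22.9 CPM in those labelled fl/fl, with UMIs in 43 of 245 cells. In all other Epcam-positive cells it was at 63.0 and 37.4 CPM. Tags of this kit lie near the 3′ end, which may be outside the deleted part, so this difference does not settle the labels. The libraries held 7304 and 11095 barcodes with 85260592 and 99871505 UMIs, of which 5099 and 8208 cells passed. They had 25 barcodes in common, none of them a neuroendocrine-marker cell.

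Since the rule used the 6 markers, their values are a description of the choice. Of the 42 cells labelled +/fl, 25 had UMIs of exactly 3 markers, 10 of 4, 6 of 5 and 1 of all 6. Among the 245 labelled fl/fl the corresponding numbers were 128, 76, 39 and 2. The summed markers ran from 5.15 to 361 per 10000 with a median of 9.42 in the +/fl-labelled library, and from 5.03 to 407 with a median of 13.1 in the fl/fl-labelled library. Many cells therefore lay close to the threshold. There were 6 and 20 cells between 5 and 6 per 10000, and 5 and 19 cells with at least 3 markers lay just outside, between 4 and 5 per 10000. A further 42 and 269 cells reached 5 per 10000 with only 2 markers. Insm1, a zinc finger repressor that sets the neuroendocrine programme, was found in 39 and 234 of the chosen cells, and Chga, the granule protein chromogranin A, in 40 and 222. Neurod1, a bHLH activator of islet and enteroendocrine cells, was found in 2 and 10 only, so the label rests almost wholly on the other 5 genes.

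The label was then set against genes outside the rule. Epcam was at 1204 and 1271 CPM, against 1139 and 1183 CPM in other Epcam-positive cells, and the 16 genes of a thymic epithelial list, among them Foxn1, Pax9 and Krt8, had a median log2 ratio of 0.12 and 0.28. These ratios are of CPM with 1 CPM added, neuroendocrine-marker cells over the other 3745 and 6517 Epcam-positive cells of the same library. Genes of peripheral neurons were in part higher. Of the list's members with at least 20 UMIs, 6 of 11 and 4 of 14 were at least 2-fold higher and 1 and 2 at least 2-fold lower, with median log2 ratios of 1.10 and 0.39. Over all genes 7.71% and 5.54% were at least 2-fold higher and 13.0% and 6.54% lower. Map2, a microtubule protein of dendrites, was at 192 against 101 CPM and at 128 against 47.7 CPM. Th and Dbh, which make catecholamines, had no UMI in the +/fl-labelled library and 7 and 9 UMIs in the fl/fl-labelled library. The shares of the rule markers in the chosen cells are set by the choice, so only their shares elsewhere are given. After each cell was thinned to 2000 UMIs, Insm1 was found in 8.09% and 17.3% of other Epcam-positive cells and in 21.7% (18 of 83) and 11.7% (11 of 94) of cells with Ptprc and no Epcam, whose medians were 7397 and 4440 UMIs at full depth. Chga was found in none of those 83 and 94 Ptprc cells.

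The promoters of 4 granule genes are shown to set the regulatory sequence of rule markers (Chga and Chgb, whose levels the choice fixes) beside that of granule genes outside the rule (Scg2 and Pcsk1). Each sequence is the RefSeq window from 250 bases before to 50 after an annotated start on GRCm38.p6, read in the direction of the gene. Capitals mark the cAMP response element TGACGTCA, which CREB-type factors recognise, and the E-box CAGCTG, which bHLH factors recognise. Both motifs read the same on both strands and they do not overlap. The 4 promoters shown each hold a motif and do not stand for the group. Of 24 genes looked up, 19 had an entry, of which 7 held CAGCTG and 3 held TGACGTCA. The rule markers Scg3 and Neurod1 and the granule gene Ptprn2 held neither.
Chga, chr12:102554691-102554990, plus strand: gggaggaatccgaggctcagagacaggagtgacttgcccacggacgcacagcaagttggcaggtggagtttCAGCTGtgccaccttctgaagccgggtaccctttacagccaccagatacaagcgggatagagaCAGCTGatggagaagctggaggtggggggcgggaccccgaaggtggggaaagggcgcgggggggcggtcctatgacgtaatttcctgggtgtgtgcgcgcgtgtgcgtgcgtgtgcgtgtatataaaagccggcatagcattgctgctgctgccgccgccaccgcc
Chgb, chr2:132781392-132781691, plus strand: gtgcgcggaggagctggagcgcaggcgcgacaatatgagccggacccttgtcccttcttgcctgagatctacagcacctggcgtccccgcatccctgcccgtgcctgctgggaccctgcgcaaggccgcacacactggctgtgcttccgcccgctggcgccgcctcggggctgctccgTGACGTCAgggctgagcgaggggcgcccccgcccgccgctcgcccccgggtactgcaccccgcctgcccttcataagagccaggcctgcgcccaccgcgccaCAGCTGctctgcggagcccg
Scg2, chr1:79439977-79440276, minus strand: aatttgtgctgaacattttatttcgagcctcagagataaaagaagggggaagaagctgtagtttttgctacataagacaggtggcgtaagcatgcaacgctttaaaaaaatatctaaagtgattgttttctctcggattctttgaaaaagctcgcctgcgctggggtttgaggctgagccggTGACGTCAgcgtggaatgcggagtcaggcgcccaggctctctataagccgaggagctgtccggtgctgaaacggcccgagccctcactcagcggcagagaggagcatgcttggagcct
Pcsk1, chr13:75089607-75089906, plus strand: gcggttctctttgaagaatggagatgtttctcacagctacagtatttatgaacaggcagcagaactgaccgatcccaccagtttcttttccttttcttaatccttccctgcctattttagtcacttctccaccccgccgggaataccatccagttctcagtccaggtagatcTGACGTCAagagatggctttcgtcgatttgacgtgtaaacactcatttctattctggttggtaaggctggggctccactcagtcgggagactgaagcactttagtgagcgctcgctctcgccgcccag

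In Chgb, Scg2 and Pcsk1 the TGACGTCA match began 72, 68 and 78 bases before the start. Chga had CAGCTG at 179 and 116 bases before the start, and Chgb had it 31 bases after. TGACGTCA occurs in 1.79% of all 32851 RefSeq promoter windows and CAGCTG in 16.3%. Over the 19 granule genes, which leave out the rule markers Chga and Chgb, 16 had an entry and 2 of these (12.5%) held TGACGTCA, beside 2.03% of all symbols with an entry. CAGCTG was in 3 of the 16 (18.75%), in 11 of 22 exocytosis genes with an entry and in 8 of 28 regulators and in 5 of 14 channels, beside 18.3% of all symbols. TGACGTCA was in 1 of 22 exocytosis genes, 3 of 28 regulators and 0 of 14 channels. A match is a description of letters, not of binding.

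The account of gene groups starts with regulators of neuroendocrine identity. Among list members with at least 20 UMIs over the cells compared, 11 of 24 were at least 2-fold higher in neuroendocrine-marker cells labelled +/fl and 18 of 34 in those labelled fl/fl. Over all genes the share at least 2-fold higher was 7.71% of 16906 genes and 5.54% of 19519 genes. The list's median log2 ratio was 0.78 and 1.13, against medians of -0.04 and 0.05 over all genes.

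Foxa2, a pioneer factor of endocrine and airway epithelium, was at 19.8 CPM against 2.73 in other Epcam-positive cells of the +/fl-labelled library, and at 43.2 against 4.45 in the fl/fl-labelled library. The winged-helix factor Rfx6, which acts in islet and gut endocrine development, had 11 UMIs in 6 cells (12.1 CPM) and none in the 3745 other cells of the first library, and stood at 17.4 against 0.574 CPM in the second. In the rest of the epithelium the level of Rfx6 was thus below that of Foxa2, which was itself low. The other cells labelled fl/fl held 76714383 UMIs and the chosen cells 3400038, so a low CPM there does not mean few Rfx6 UMIs in all. Rfx6 and Foxa2 were each found in a minority of the chosen cells.

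Other regulators were shared with the rest of the medulla. Isl1, a LIM homeodomain factor of islet and neural cells, was at 142 and 105 CPM in neuroendocrine-marker cells and at 140 and 142 CPM in cells high in Ccl21a, the T cell-attracting chemokine of immature mTECs. Prox1 (44.0 and 57.4 CPM), St18 (38.5 and 52.4 CPM) and Tox3 (130 and 135 CPM) were also present in cells with tuft markers, at 119 and 90.5 CPM, 76.9 and 72.1 CPM, and 80.4 and 110 CPM. Against all other Epcam-positive cells, the log2 ratios of Prox1 and St18 were -0.09 and 0.59 in the +/fl-labelled library, where tuft-marker cells made up 26.2% of passing cells, and 2.09 and 2.57 in the fl/fl-labelled library, where they made up 7.04%.

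Genes that hold the neuroendocrine programme back were mixed. Of the 18 genes on the list of Notch members and bHLH repressors, 7 and 2 were at least 2-fold lower and 3 and 1 at least 2-fold higher, while 13.0% and 6.54% of all genes were lower. REST, a repressor of neuronal genes outside neurons, was at 7.71 against 44.5 CPM for Rest in the +/fl-labelled library and at 17.1 against 32.9 CPM in the fl/fl-labelled library. The Notch effector Hes1 was at 11.0 against 40.5 CPM and at 21.8 against 54.7 CPM, and Id1, an inhibitor of bHLH factors, at 50.7 against 165 CPM and at 44.4 against 110 CPM. Within Aire-high cells Hes1 was at 13.9 and 18.7 CPM and Rest at 12.4 and 15.9 CPM. Both were thus above the chosen cells in the +/fl-labelled library and slightly below them in the fl/fl-labelled library. In cluster 0 of the clustering described below, 1 of 58 cells held 65.8% of 38 Rest UMIs. Against Aire-high cells, 0 of 14 and 4 of 17 genes of the list were at least 2-fold higher and 1 and 0 at least 2-fold lower. Over all genes in that comparison 8.89% and 10.9% were higher and 6.83% and 11.8% lower by that margin.

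**Figure D1:**
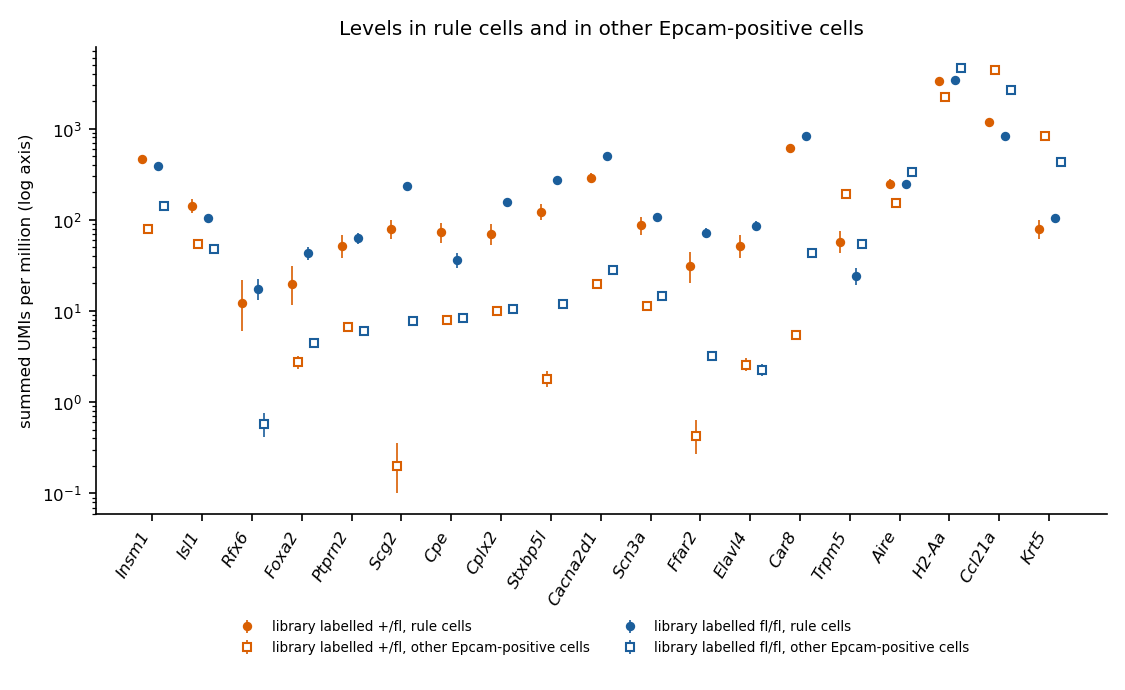
Summed level in CPM on a log axis for 19 genes, in neuroendocrine-marker cells (rule cells, filled circles) and other Epcam-positive cells (open squares) of the +/fl-labelled library (orange) and the fl/fl-labelled library (blue), with 95% Poisson intervals. Rfx6 has no square for the +/fl-labelled library because it had no UMI there. From Rfx6 to Car8 the circles lie above the squares of their own library, and for Ccl21a and Krt5 they lie below.

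Genes of granules and prohormone processing were the group with the highest median. At least 2-fold higher were 14 of 19 in the +/fl-labelled library and 15 of 19 in the fl/fl-labelled library, with median log2 ratios of 2.36 and 1.89. Scg2 (chromosome 1, 79434669 to 79440120), the granule protein secretogranin II, was at 78.2 against 0.202 CPM and at 233 against 7.73 CPM. It came from 6 and 40 cells, so its level describes a subset. The convertase Pcsk1, which cuts prohormones, was at 16.5 against 0.385 CPM and at 25.9 against 1.63 CPM. Cpe, the carboxypeptidase that trims what the convertases leave, was at 72.7 against 7.96 CPM and at 35.9 against 8.47 CPM, and 62% of its UMIs in the +/fl-labelled library were in 1 cell.

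The granule membrane phosphatase Ptprn2 was more evenly spread, with UMIs in 18 of 42 and 116 of 245 cells and 51.8 against 6.64 and 62.7 against 6.09 CPM. Resp18, a granule protein of unsettled function, was the most abundant of the list at 610 against 76.2 CPM and 916 against 218 CPM. Scg5, a chaperone of the convertase PC2, was at 544 against 212 CPM and at 425 against 114 CPM. Pam, which amidates peptide ends, was found in 40 and 220 cells at 221 against 112 CPM and 306 against 119 CPM. Vps41 and Cpd stayed under 2-fold in both libraries, and Stmn2, which is found in neurons, was at 178 against 229 CPM and at 21.8 against 32.9 CPM.

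For the machinery that docks and fuses granules, 12 of 26 and 15 of 30 genes were at least 2-fold higher, with median log2 ratios of 0.84 and 1.02. Cplx2, the complexin that clamps the SNARE complex, was at 69.4 against 10.0 CPM and at 158 against 10.4 CPM. Rimbp2, which ties calcium channels to release sites, was at 17.6 against 0.165 CPM and at 31.5 against 1.77 CPM. Syt7 and Syt13, of the synaptotagmin family, were at 60.6 against 9.01 and 25.3 against 6.29 CPM in the +/fl-labelled library and at 103 against 19.1 and 40.6 against 8.71 CPM in the fl/fl-labelled library. Components used in many cell types differed less: Vamp2 was at 98.0 against 67.7 CPM and at 94.4 against 63.1 CPM.

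Channels that make endocrine cells excitable were at least 2-fold higher for 11 of 21 and 12 of 23 genes, with medians of 1.23 and 1.17. The calcium channel subunit Cacna2d1 (chromosome 5, 15934691 to 16374511) was the most widely detected, with UMIs in 35 of 42 and 199 of 245 cells. Its level was 290 against 19.8 CPM, a 14.6-fold ratio (12.7 to 16.7), and 503 against 27.9 CPM, an 18.1-fold ratio (16.9 to 19.3). The sodium channel Scn3a was at 87.0 against 11.4 CPM and at 108 against 14.6 CPM, and the P/Q-type calcium channel Cacna1a at 60.6 against 11.2 CPM and at 82.1 against 17.6 CPM. Abcc8, the sulfonylurea receptor of the ATP-gated potassium channel, was at 31.9 against 9.85 CPM and at 44.4 against 19.2 CPM. Against tuft-marker cells alone, 8 of 17 and 13 of 20 channel genes and 10 of 22 and 14 of 23 exocytosis genes were at least 2-fold higher. At least 2-fold lower were 4 and 4 channel genes and 5 and 2 exocytosis genes. Over all genes in that comparison 1963 of 13469 and 2372 of 13334 were higher by that margin, and 2076 and 1102 lower.

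Receptors by which gut endocrine cells sense their surroundings could be compared for 10 and 13 of 19 genes, which reached 20 UMIs, and 4 and 5 of these were at least 2-fold higher. Ffar2, a receptor for short-chain fatty acids, was at 30.8 against 0.422 CPM and at 72.1 against 3.19 CPM, in 14 and 112 cells. The somatostatin receptor Sstr2 was at 15.4 against 5.21 CPM and at 27.7 against 2.93 CPM. For amines, 4 of 11 and 3 of 15 genes were at least 2-fold higher. Ddc, which makes serotonin and dopamine from their precursors, was at 68.3 against 6.99 CPM and at 67.4 against 11.7 CPM. Tph1, the enzyme that commits tryptophan to serotonin, had UMIs in 1 cell labelled +/fl and 21 cells labelled fl/fl, at 3.30 and 26.2 CPM.

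Peptide hormones, the product of such cells elsewhere, reached a high level in few of them. Calcb was found at any level in 20 of 42 and 105 of 245 cells, Calca in 16 and 91, and Sct (secretin) in 17 and 60. Of 49 hormone and neuropeptide genes, none reached 10 per 10000 UMIs in 31 of 42 cells labelled +/fl and in 175 of 245 labelled fl/fl. A single hormone did so in 7 and 53 cells. By this count Calca (calcitonin and its gene-related peptide) was high in 25 cells, Iapp (islet amyloid polypeptide) in 22, Calcb in 9, Ghrl (ghrelin) in 8 and Pyy (peptide YY) in 5. Calca did not mark the chosen cells out, since it stood at 366 and 442 CPM in them and at 688 and 511 CPM in Aire-high cells. Of the other 20 hormones that were high in at least 1 cell, 9 had over 50% of their UMIs in 1 cell. All 157 Ins2 (insulin) and all 203 Npy UMIs labelled +/fl were in 1 cell each, as were 99 of 100 Cck UMIs and 124 of 125 Ppy UMIs, and 143 of 149 Tac1 UMIs labelled fl/fl. Gcg (glucagon) had 0 and 8 UMIs and Sst (somatostatin) 0 and 4.

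**Figure D2:**
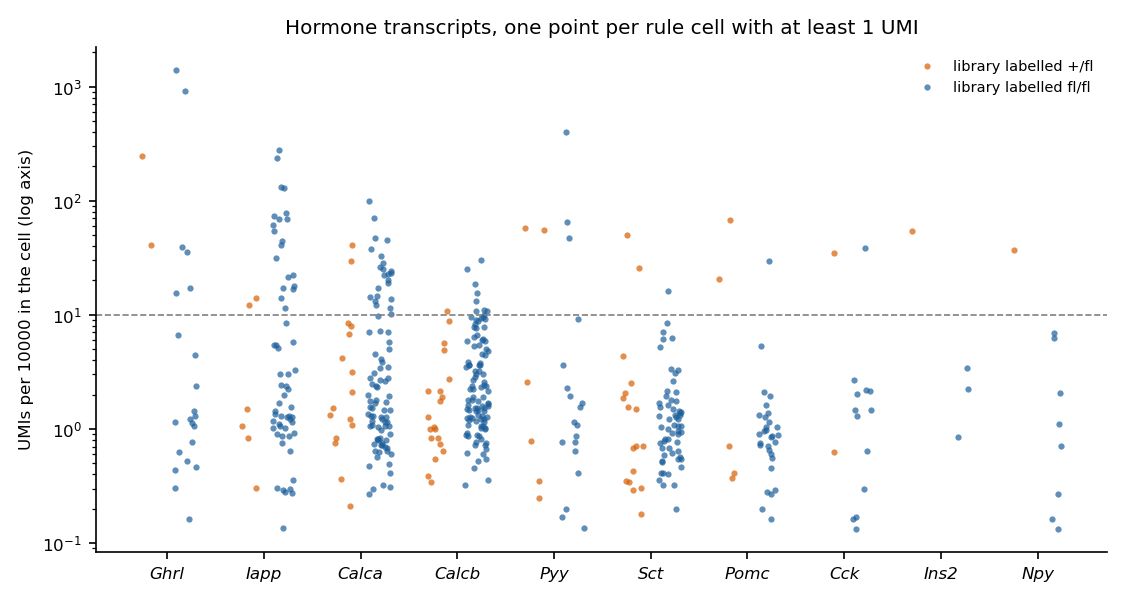
UMIs per 10000 on a log axis for 10 hormone genes, with 1 point for each neuroendocrine-marker cell with at least 1 UMI, orange for the +/fl-labelled library and blue for the fl/fl-labelled library. The dashed line is at 10 per 10000. Ghrl reaches 1399 per 10000 in its highest cell, Calca and Calcb are spread over many cells at low level, and Ins2 and Npy labelled +/fl are a single point each.

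Ghrl (chromosome 6, 113716119 to 113719880) was the exception in amount. The +/fl-labelled library had 755 UMIs in 2 cells, 711 of them in 1, and the fl/fl-labelled library had 1713 UMIs in 22 cells, of which 2 cells held 831 and 758. In other Epcam-positive cells it was at 1.06 and 32.7 CPM. The 8 Ghrl-high cells were then set beside the other 279, a choice made after their values were seen. They had Rfx6 in 6 of 8 cells (75.0%), against 15.4% of the others, Cpe in 5 (62.5%) against 14.7%, and Gch1, which makes a cofactor of amine synthesis, in 6 (75.0%) against 21.5%. Isl1 was at 855 against 97.6 CPM in them, but 82.2% of its UMIs were in 1 cell, and it was found in 4 of 8 cells against 41.6% of the others. Aire was found in 2 of 8 against 60.2%. Rest and Ikzf1 had no UMI in these 8 cells, but they were found in only 10.8% and 22.6% of the others. Their absence from so few cells says little. Mboat4, whose product acylates ghrelin, had no UMI in them either, and was found in 0.717% of the others.

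Among genes with at least 50 CPM in the chosen cells of both libraries, the 20 with the highest ratios were Cd177, Scg2, Speer4c, Stxbp5l, Car8, Ghrl, Elavl4, Cacna2d1, Dnajc12, Fam183b, Celf3, Tshz2, Scn3a, Ptprn2, Rbp4, Cplx2, Klk1, Vwf, Akr1c19 and Sqor. They were ranked by the lower of the ratios in the 2 libraries. Car8 (chromosome 4, 8143362 to 8239041), a relative of the carbonic anhydrases that binds the IP3 receptor, was the most abundant outside hormones, at 609 against 5.43 CPM, a 112-fold ratio (97.2 to 130), and at 836 against 43.7 CPM, a 19.1-fold ratio (18.2 to 20.1). It was found in 16 of 42 and 174 of 245 cells. After thinning it was in 28.6% and 54.5% of neuroendocrine-marker cells and in 0% (0 of 83) and 1.06% (1 of 94) of Ptprc cells.

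Stxbp5l, a tomosyn that regulates SNARE assembly, was at 122 against 1.82 CPM and at 273 against 12.02 CPM. The neuronal RNA-binding proteins Elavl4 and Celf3 were at 51.8 against 2.59 and 54.0 against 2.29 CPM in the +/fl-labelled library, and at 85.6 against 2.26 and 94.7 against 11.97 CPM in the fl/fl-labelled library. Cd177, known as a neutrophil surface protein, was at 94.7 against 1.25 CPM and at 384 against 6.36 CPM, in 5 and 114 cells. The kallikrein Klk1 was at 402 against 13.5 CPM and at 766 against 121 CPM, and Vwf, the von Willebrand factor of endothelium, at 51.8 against 3.36 CPM and at 74.7 against 11.2 CPM. The endothelial list as a whole was at 4.40 and 9.41 CPM in these cells, with 3 and 1 of its 5 genes at 0. Rbp4, a retinol carrier, had 99% of its UMIs labelled +/fl in 1 cell. These genes differ in spread: some were found in most of the cells, such as Cacna2d1, and others in a few cells with many copies.

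The 10 genes with the lowest ratios were Krt5, Ifi27l2a, Ccl21a, Lrmp, Bpifa1, Wfdc18, Tpm2, Cald1, Anxa2 and S100a10. The direction of Bpifa1 in the +/fl-labelled library turned after thinning and with Insm1 left out of the rule. Krt5, a basal keratin, was at 78.2 against 824 CPM and at 104 against 427 CPM. Ccl21a was at 1191 against 4334 CPM and at 819 against 2639 CPM. Lrmp, a gene of tuft and lymphoid cells, was at 259 against 1046 CPM and at 91.5 against 261 CPM, but the rule itself bars cells high in tuft genes. For the same reason the 11 and 10 of 16 tuft genes that were at least 2-fold lower say little. Beside 13.0% and 6.54% of all genes, 8 and 5 of 11 keratinocyte genes, 14 and 4 of 18 cell-cycle genes and 5 and 5 of 10 microfold genes were at least 2-fold lower.

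Genes of other cell types were low but not absent. The T-lineage list stood at 33.0 and 30.9 CPM in neuroendocrine-marker cells, at 30.7 and 42.6 CPM in other Epcam-positive cells and at 4132 and 4003 CPM in Ptprc cells. Cd3e had 0 and 2 UMIs. The myeloid list was at 333 and 812 CPM, against 282 and 791 CPM in other Epcam-positive cells, and Lyz2 gave most of it, at 307 and 759 CPM, while Tyrobp had 6.61 and 6.77 CPM. Tuft genes summed to 1180 and 577 CPM, against 3404 and 1110 CPM. Their part in the results above was not tested.

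Relations with Aire differed between the libraries. Aire, the regulator that opens tissue-restricted genes, was at 248 against 154 CPM in the +/fl-labelled library and at 249 against 334 CPM in the fl/fl-labelled library. The chosen cells thus had like levels, and the other cells did not, among which Aire-high cells made up 5.22% and 18.2% of passing cells. The 13 genes of the Aire-stage list had a median log2 ratio of 0.24 and -0.42, and the 11 genes of MHC class II of 0.56 and -0.43. Against Aire-high cells in particular, 8 of 16 and 19 of 31 regulators and 11 of 17 and 12 of 19 granule genes were at least 2-fold higher, and cell-cycle genes were at least 2-fold lower for 9 of 16 and 10 of 18. Over all genes in that comparison 8.89% and 10.9% were at least 2-fold higher and 6.83% and 11.8% lower. Car8, which the rule did not use, was at 0.674 and 8.58 CPM in Aire-high cells.

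Within the 287 cells, high Aire and high Car8 were in different cells in the +/fl-labelled library and overlapped in part in the fl/fl-labelled library. Aire at 2 per 10000 or more was found in 12 and 61 cells and Car8 at 10 per 10000 or more in 11 and 102. Both were met in 0 and 18 cells and neither in 19 and 100. Of 11 and 102 Car8 cells, 10 and 73 also had Cacna2d1 at 5 per 10000 or more, a level that 14 of all 42 and 114 of all 245 chosen cells reached. These thresholds were set with the data in view, and the counts are a description.

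**Figure D3:**
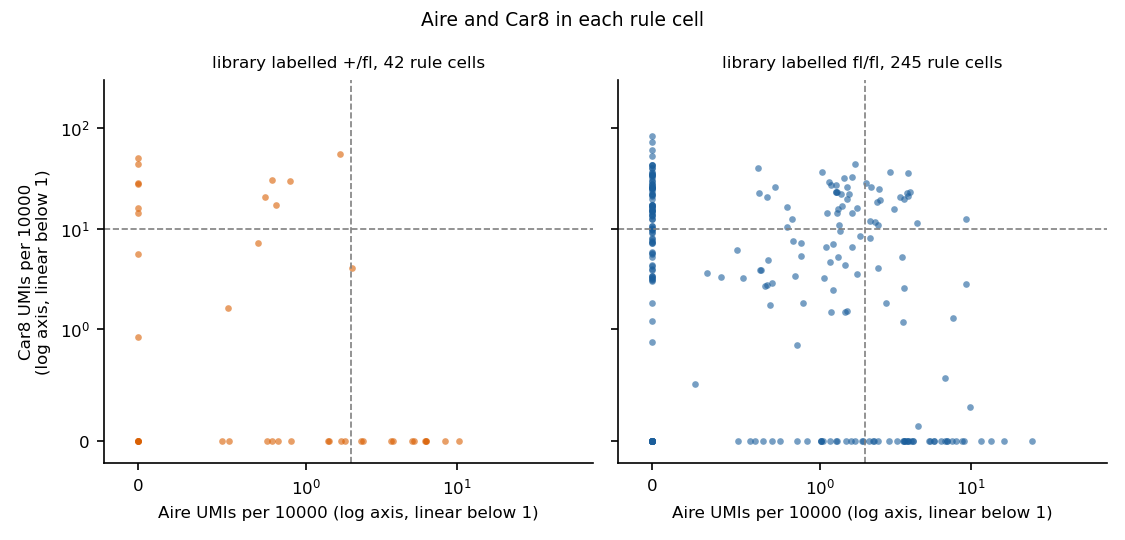
Aire (x axis) and Car8 (y axis) in UMIs per 10000, on log axes that are linear below 1, with 1 point per neuroendocrine-marker cell, for the +/fl-labelled library (left, 42 cells) and the fl/fl-labelled library (right, 245 cells). Dashed lines are at 2 and 10 per 10000. The upper right field holds 0 and 18 cells, and the lower left field 19 and 100.

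Clustering the chosen cells alone (Leiden, resolution 1) gave 8 clusters, numbered 0 to 7 by size, which are described by their leading genes with no test. Cluster 1 (52 cells, 6 labelled +/fl and 46 labelled fl/fl) was led by Cpe, Cxxc4, Arg1, Irx2 and Lgals2. It held the most marker transcripts, with 3516 CPM of Chga and 2467 CPM of Chgb, and all 8 Ghrl-high cells. It also had the highest Isl1 (485 CPM), Rfx6 (67.1 CPM) and Nkx2-2 (45.4 CPM) of the 8 clusters. These came from 29, 19 and 5 of its 52 cells, and 1 cell held 35.2% of its Chga UMIs.

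Clusters 2 and 3 (51 and 48 cells) had Car8 at 2212 and 1869 CPM and Cacna2d1 at 984 and 1147 CPM, as cluster 1 did at 1602 and 876 CPM, but Ghrl at 1.92 and 15.4 CPM. Cluster 2 was led by Adra2a, Smbd1, Speer4c, Ighm and Klk1, and cluster 3 by Col8a1, Lefty1, Neurl3, Klf10 and Kcnk3. Only 3 and 4 of their cells were labelled +/fl.

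Clusters 0 and 4 had more Aire and less Car8. Cluster 0 (58 cells, 1 labelled +/fl) was led by Stra8, Tnfaip6, Mylpf, H2-Q10 and Il13, and cluster 4 (26 cells, 18 labelled +/fl) by Col9a1, Lockd, Gpx6, Cyp26a1 and Epyc. They had Aire at 403 and 448 CPM and H2-Aa at 6122 and 4281 CPM, with Car8 at 193 and 40.02 CPM. Of their cells, 35 and 16 had Aire at 2 per 10000 or more. Their median depths, 19079.5 and 25169 UMIs, were the highest of the 8 clusters and their median summed markers, 8.29 and 8.42 per 10000, the lowest. The lists of regulators, channels and sensing receptors had their lowest sums there, with the channel list at 465 and 269 CPM, against 1729 to 1956 CPM in clusters 1, 2 and 3. Other lists did not follow that order: brain and pituitary peptides summed to 1278 and 1006 CPM, the highest of the 8 clusters, amine genes were highest in cluster 0 (627 CPM), and the exocytosis list was at 1266 and 1278 CPM, against 1235 CPM in cluster 6. All clusters are called by number.

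Clusters 5 and 6 held genes of other mimetic classes beside neuroendocrine markers. Cluster 5 (21 cells) was led by the taste genes Gnat3 and Rgs21 with Pcdh20, Lrmp and Slit2 and had Trpm5 at 215 CPM, although cells high in Trpm5, Dclk1 and Alox5ap had been left out. Cluster 6 (18 cells) was led by Lcn2, F3, Lypd3, Spink5 and Ifitm1 and had Krt10 at 632 CPM, against 23.5 to 46.3 CPM in the others. Cluster 7 (13 cells), led by Clvs1, Sox11, Pdlim3, Fgf11 and Cdkl1, had Neurod1 at 334 CPM (241 to 449) and cluster 1 at 245 CPM (204 to 292), each with over 50% of these UMIs in 1 cell. The doublet caller Scrublet marked 1 and 0 cells of the whole libraries by its automatic threshold, which is not a working call. The 208 and 539 highest-scored cells, 4.08% and 6.57% of passing cells, included 1 and 33 neuroendocrine-marker cells. These were 2.38% and 13.5% of the chosen cells, so those labelled fl/fl were over-represented among high doublet scores. The part of doublets in the clusters was not tested.

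**Figure D4:**
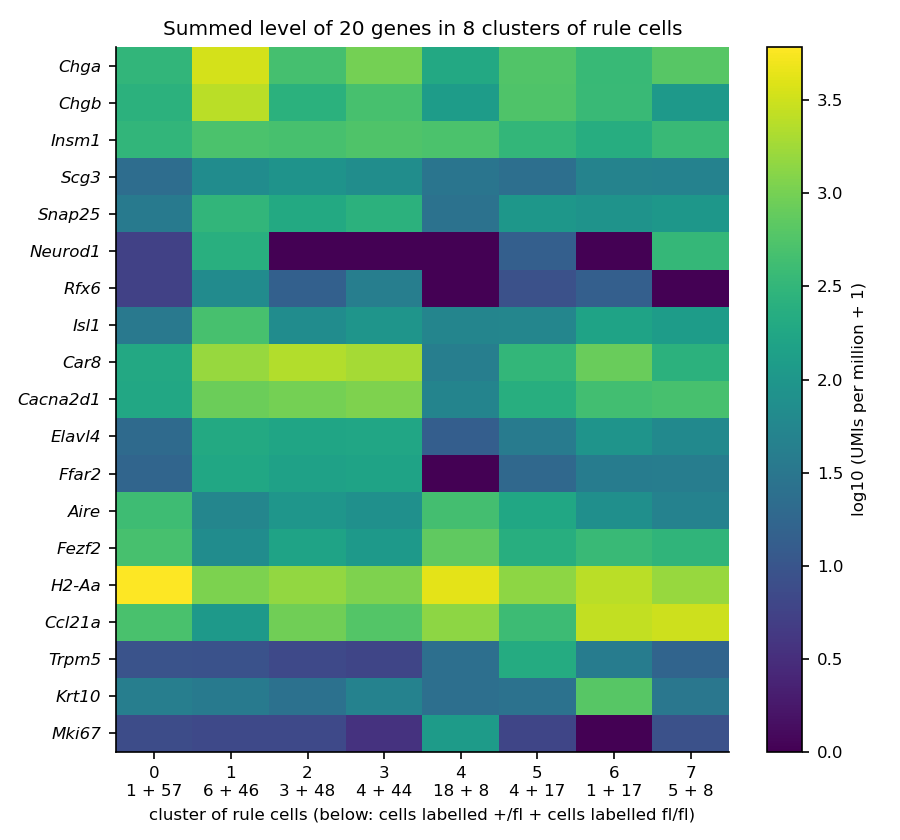
Summed level of 19 genes as log10 (CPM + 1) in the 8 clusters of neuroendocrine-marker cells. Under each cluster number stand its cells labelled +/fl and its cells labelled fl/fl. Clusters 1, 2 and 3 are bright for Car8 and Cacna2d1, clusters 0 and 4 for Aire, Fezf2 and H2-Aa, cluster 5 for Trpm5 and cluster 6 for Krt10.

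Cells that met the rule were more frequent in the fl/fl-labelled library. They made up 0.824% (42 of 5099, exact interval 0.594 to 1.11) of the +/fl-labelled library and 2.98% (245 of 8208, 2.63 to 3.38) of the fl/fl-labelled library, a ratio of 3.62 (2.60 to 5.15). The excess was not particular to them, since the same ratio was 3.49 (3.06 to 3.99) for Aire-high cells. It was 0.269 for tuft-marker cells and 0.853 for Ccl21a-high cells. Outside tuft-marker cells and cells with Ptprc, the shares were 1.48% and 3.52% and the ratio 2.38 (1.71 to 3.39). The chosen cells labelled +/fl were deeper, with a median of 18442.5 UMIs against 10402, and the rule asks for detection, so it was also applied to cells thinned to 2000 UMIs. Then 8 of 4771 cells (0.168%) and 73 of 7389 cells (0.988%) met it, a ratio of 5.89. The direction was the same under every setting of the rule that was tried. With Aire-positive cells (2 per 10000 or more) left out, the shares were 0.588% and 2.24%.

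**Figure D5:**
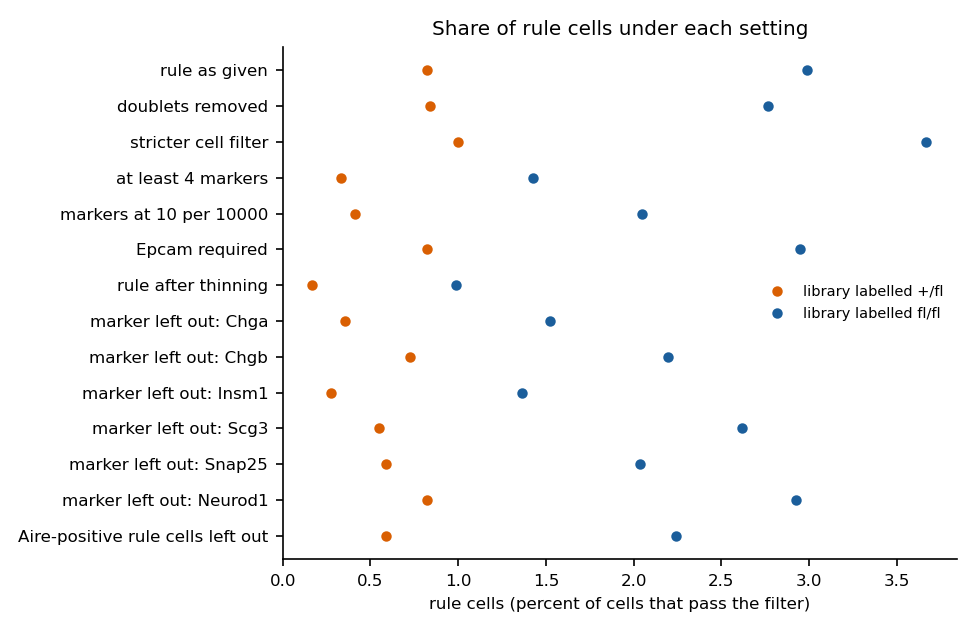
Neuroendocrine-marker cells as a percentage of cells that passed the quality filter, for the +/fl-labelled library (orange) and the fl/fl-labelled library (blue), under the rule as given and each alternative setting. The points of the fl/fl-labelled library lie to the right of those labelled +/fl in every row, between 0.988% and 3.67%, with the lowest values after thinning.

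Between the libraries, the composition of the chosen cells differed with their number. Clusters 0, 2 and 3 held 23.3%, 19.6% and 18.0% of the cells labelled fl/fl and 2.38%, 7.14% and 9.52% of those labelled +/fl, and cluster 4 held 42.9% of the +/fl-labelled cells and 3.27% of the fl/fl-labelled cells. A cluster mostly of 1 library may be that library rather than a kind of cell. Of 12056 genes compared within the chosen cells, 12.5% were at least 2-fold higher and 4.64% at least 2-fold lower in the fl/fl-labelled library, with a median log2 ratio of 0.14. Regulators were at least 2-fold higher for 5 of 21 genes and lower for 1, granule genes for 4 and 2 of 19, exocytosis genes for 4 and 1 of 21, and channels for 5 and 0 of 17. The counts of higher genes exceed what 12.5% would give by fewer than 3 genes in each list, and the median of the granule list, 0.38, ran from -0.48 to 0.50 over the alternative settings.

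Chga was at 1168 CPM in the +/fl-labelled library, where 1 cell held 59% of it, and at 680 CPM in the fl/fl-labelled library. Snap25, a SNARE protein of granule fusion, was at 62.8 and 133 CPM, and Foxa1 and Foxa2 were at 15.4 and 65.6 CPM and at 19.8 and 43.2 CPM. Beside 12.5% of all genes higher and 4.64% lower, keratinocyte genes were at least 2-fold higher in the fl/fl-labelled library for 8 of 10 and none was lower. Their sum was 1502 CPM in cluster 6, where 17 of 18 cells were labelled fl/fl, and 402 CPM in cluster 0, the next highest. Tuft genes were lower for 8 of 15, though the rule bars cells high in tuft genes. In other Epcam-positive cells tuft genes were at least 2-fold lower for 13 of 16, beside 2.25% of all genes, while 9.56% of all genes were at least 2-fold higher.

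The 12 genes with the highest ratios between the libraries were Camp, Lcn2, Fabp9, Fabp2, Tff1, Crct1, Nts, Gal, Lgals7, Reg1, Spink5 and Ctrb1, which belong to neutrophil, gut, skin, pancreas and neuropeptide programmes. Camp, an antimicrobial peptide, had no UMI in the +/fl-labelled library and was at 148 CPM in the fl/fl-labelled library, at least 44.9-fold higher against 3 counts over the 42 cells, but 59.9% of its UMIs were in 1 cell. Fabp9, a fatty acid-binding protein of testis, was spread over 40 cells at 89.1 CPM and was at least 27.0-fold higher. Nts, the gut and brain peptide neurotensin, was in 27 cells at 58.8 CPM and at least 17.8-fold higher.

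The 12 with the lowest ratios were Spp2, Ins2, Csn1s2a, Mcpt1, Epyc, Gpx6, Ly6c1, Npy, Kcne1l, Aldh3a1, Coch and C1ql4. For Ins2, Csn1s2a, Mcpt1, Ly6c1, Npy and Kcne1l 97.0% to 100% of the UMIs labelled +/fl came from 1 cell. Gpx6, a glutathione peroxidase of the olfactory lining, was at 288 CPM in 21 of 42 cells labelled +/fl and at 16.5 CPM in 25 of 245 labelled fl/fl. Cluster 4, where 18 of 26 cells were labelled +/fl, had Gpx6 at 335 CPM, and no other cluster had over 37.3 CPM. Ikzf1 was also highest in cluster 4, at 98.0 CPM, and next in cluster 0, at 34.3 CPM. In the other clusters it ran from 3.95 CPM in cluster 1 to 23.3 CPM in cluster 7, in another order than Gpx6. The direction between libraries of Reg1, Spp2, Epyc, Gpx6, Aldh3a1, Coch and Ikzf1 turned under at least 1 alternative form of the rule, with the values in the closing section.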

How the data were processed

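The 2 libraries are single-cell 3′ RNA libraries, and the authors deposited unnormalised UMI counts for each gene in each barcode, per the file headers. The submitters' processing notes name Cell Ranger and Seurat, the matrix headers carry version 3.1.0, and no source used here names the genome build or annotation. All 31053 features were used, of which 31011 matched GENCODE M21 (GRCm38) for positions.

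The marker rule, cell filter, gene lists and named-gene rule were chosen with earlier results of these data known, and no list is independent support. Counts were summed over cells, divided by the total and given as CPM with exact Poisson intervals. Shares have Clopper-Pearson intervals and ratios exact conditional intervals. Log2 ratios have 1 CPM added, and lists count genes with at least 20 UMIs. Named genes are list members, the 20 highest and 10 lowest against other Epcam-positive cells (at least 50 CPM in both libraries), the 12 highest and 12 lowest between libraries (at least 50 CPM in either and 50 UMIs over both, sex-linked genes apart), and the 5 leading genes of each cluster. Tuft-marker cells had Trpm5, Dclk1 and Alox5ap at 10 per 10000 or more, Aire-high cells Aire at 5, Ccl21a-high cells Ccl21a at 50, and Ptprc cells at least 2 Ptprc and no Epcam UMIs. Doublets were kept. Scanpy 1.11.5 clustered the cells, under Python 3.11.15. The summing step was tested on simulated data. Alternatives are listed in the closing section. Some genes on the lists are not reported here by name.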

Additional observations from a re-analysis of the deposited data

Results flagged for a closer look

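Spp2, which encodes a secreted phosphoprotein of bone and liver, had opposite directions in the libraries. Its log2 ratio, neuroendocrine-marker cells over other Epcam-positive cells, was 5.93 in the +/fl-labelled library and -1.53 in the fl/fl-labelled library, and 76% of its UMIs labelled +/fl were in 1 cell. Epyc, a small proteoglycan of cartilage, had 1.55 and -1.11, with UMIs in 12 of 42 and 14 of 245 cells. These differences were not tested, since each library is a single sample.

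Barcodes that failed the quality filter were not used in any comparison. Of them, 4 in the +/fl-labelled library and 13 in the fl/fl-labelled library met the marker part of the rule.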

How the results depend on the processing

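No paired analysis was possible because each genotype has a single library, so no replicate could be left out either. The alternatives were doublets removed, a stricter cell filter (1000 genes, 2000 UMIs, 10% mitochondrial), at least 4 markers, markers at 10 per 10000, Epcam required, thinning to 2000 UMIs, each marker left out, 10 CPM added, per-cell means, trimmed-mean scaling and minimums of 5 or 50 UMIs, and, chosen after seeing the data, Aire-positive cells left out, genes with at least 10 CPM, and the highest-marker cell of each library left out. In 20 settings the counts of granule, exocytosis, regulator and channel genes at least 2-fold higher were 11 to 16, 7 to 13, 7 to 17 and 6 to 14 labelled +/fl and 11 to 16, 8 to 19, 11 to 21 and 10 to 14 labelled fl/fl. The causes of the differences below were not tested. With the main values 0.824% and 2.98%, the shares labelled +/fl and fl/fl were 0.333% and 1.43% with 4 markers, 0.412% and 2.05% with markers at 10 per 10000, 0.168% and 0.988% after thinning (ratio 5.89), 0.353% and 1.52% without Chga, 0.275% and 1.36% without Insm1, 0.549% and 2.62% without Scg3, 0.588% and 2.03% without Snap25, and 0.588% and 2.24% without Aire-positive cells. The fl/fl share was 3.67% with the stricter filter and 2.19% without Chgb. All genes at least 2-fold higher and lower numbered 1303 and 2194 labelled +/fl and 1081 and 1277 labelled fl/fl. These became 2164 and 5428, and 2186 and 3923, after thinning, 1969 and 3520, and 1713 and 2991, without Chga, 2315 and 4901, and 1832 and 2811, without Insm1, 403 and 400, and 312 and 186, with 10 CPM added, and 772 and 812, and 653 and 454, over genes with 10 CPM. Lower genes labelled +/fl numbered 3651 with 4 markers and 3381 with markers at 10 per 10000. Labelled fl/fl, 4 markers gave 1625 and 2614, and lower genes numbered 2436 with markers at 10 per 10000, 2005 without Chgb, 2622 without Aire-positive cells and 1959 by per-cell means. Between libraries, 1505 higher and 560 lower genes became 428 and 265 with 10 CPM added, 2847 and 927 with 5 UMIs, and 811 and 323 with 50 UMIs, with 324 lower after thinning. Regulators labelled +/fl numbered 17 without Insm1. With 10 CPM added, regulators, exocytosis genes and channels numbered 7, 7 and 6 labelled +/fl, and regulators and exocytosis genes 11 and 8 labelled fl/fl. Channels labelled +/fl numbered 7 over genes with 10 CPM. A gene counted as called here if 2-fold with an interval outside 1 and still 2-fold without its top cell, a condition added once the alternatives had been seen, since hormones of 1 cell turned sign often. Of called genes, 4 of 62 labelled +/fl, 0 of 63 labelled fl/fl and 7 of 27 between libraries turned sign. Other 2-fold genes rested on 1 cell or had an interval across 1, and 6 of 10, 1 of 4 and 11 of 16 of these turned sign. Labelled +/fl, log2 Pyy was -3.38 with 4 markers, -0.67 after thinning, -1.43 without Chga and -5.46 without Insm1. Pomc was -3.96 with 4 markers, -3.97 after thinning, -3.96 without Chga or Insm1 and -1.67 without Aire-positive cells. Bpifa1 was 0.66 and Pcsk2 -1.07 after thinning, and Bpifa1 was 0.34 without Insm1. Between libraries, Spp2 was 0.033 and Coch 0.50 with 4 markers, and Reg1 -0.16 with markers at 10 per 10000. Epyc was 2.02, Aldh3a1 3.11 and Coch 1.35 after thinning. Without Insm1, Epyc was 2.27, Gpx6 0.43, Aldh3a1 0.43, Coch 4.79 and Ikzf1 1.34. Thinning was used only to choose the cells in this section, and gene values under that setting are sums of all their UMIs. It left 8 cells labelled +/fl, so those values rest on few cells.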
